A study of Mus musculus with 6 samples.

Results

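A set of 10 genes of the glucocorticoid pathway was examined in whole brain: both corticosteroid receptors (Nr3c1 and Nr3c2), the enzyme Hsd11b1, the receptor co-chaperone Fkbp5 and the 6 hormone-responsive genes Sgk1, Tsc22d3, Ddit4, Zbtb16, Plin4 and Cdkn1c. Each gene was read by a probeset with exactly 1 gene symbol in the array annotation, chosen by the highest mean log2(intensity + 1) over all 6 arrays, and all 10 were present among the 22180 genes so defined. Brightness decided 1 case, Nr3c2, whose used probeset averaged 7.15 in control and 7.18 in knockout brain after quantile normalisation, while its other probeset averaged 3.24 and 3.32. All 10 passed the filter on low values, which left 16635 genes to be tested.

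The 6 arrays held whole-brain RNA of mice of either sex aged 91 days, with 3 arrays in each group; the labels do not name the animals one by one. Control mice had the genotype Thy1Cre-ERT2-EYFPHuRf/+ and knockout mice the genotype Thy1Cre-ERT2-EYFPHuRf/f, so both groups carried a Cre recombinase with a yellow fluorescent reporter, driven by the Thy1 promoter and activated by tamoxifen, and both received tamoxifen at 10 and 11 weeks of age. The groups differ in the number of floxed alleles of Elavl1, which encodes the RNA-binding protein HuR, and the controls carry 1 such allele themselves. Thy1 drives Cre in neurons, so glia, vessels and the choroid plexus should keep the gene, and in whole-tissue RNA fewer cells of a type and less RNA per cell cannot be told apart.

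Corticosterone, the main glucocorticoid of the mouse, enters the brain from blood and binds a pair of related receptors that act as transcription factors. The mineralocorticoid receptor (Nr3c2) binds it at low hormone levels and the glucocorticoid receptor (Nr3c1) mainly at the peaks of the daily rhythm and under stress. The ligand-bound receptor releases its chaperones, enters the nucleus and binds the glucocorticoid response element, a palindrome of a pair of arms. Among the genes it induces in brain are Fkbp5, whose product lowers the receptor's affinity for the hormone, the kinase gene Sgk1 and Tsc22d3, which encodes the leucine zipper protein GILZ.

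Sequences around annotated start sites were taken from RefSeq (GRCm38.p6), from 250 bases before to 50 bases after each start. The set of windows used here held 14 for 7 of the 10 genes. It held none for Nr3c1, Zbtb16 and Cdkn1c, so these genes were not searched, and it need not cover every gene. Windows were searched on both strands for the palindrome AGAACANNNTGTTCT and for a single arm of it, AGAACA, which also lies inside every match of the palindrome. The palindrome was found in 3 of the 32851 windows in the set, or 0.00913%, and 1 of these 3 belongs to Sgk1. A single arm was found in 19% of the windows in the set and in 4 of the 14 windows here, 3 of Sgk1 and 1 of Tsc22d3. The windows below are shown because they hold the palindrome (Sgk1), a lone arm (Tsc22d3) or neither (Ddit4), and these genes are among those followed across the arrays below; capitals mark the matches, and all are written 5′ to 3′ on the strand of the gene (plus for Sgk1, minus for the others).
Sgk1, chr10:21993640-21993939: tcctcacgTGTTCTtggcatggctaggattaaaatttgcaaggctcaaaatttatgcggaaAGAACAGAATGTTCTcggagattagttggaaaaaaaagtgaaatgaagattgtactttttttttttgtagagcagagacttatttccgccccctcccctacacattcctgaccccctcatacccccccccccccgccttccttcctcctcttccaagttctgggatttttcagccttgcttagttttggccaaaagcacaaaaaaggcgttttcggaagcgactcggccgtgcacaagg
Tsc22d3, chrX:140600473-140600772: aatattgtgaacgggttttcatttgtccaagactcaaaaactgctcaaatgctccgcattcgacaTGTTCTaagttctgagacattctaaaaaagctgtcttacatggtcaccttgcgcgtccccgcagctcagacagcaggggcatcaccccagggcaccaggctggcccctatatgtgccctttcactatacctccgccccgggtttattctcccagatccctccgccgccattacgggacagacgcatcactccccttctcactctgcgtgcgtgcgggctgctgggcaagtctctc
Ddit4, chr10:59951721-59952020: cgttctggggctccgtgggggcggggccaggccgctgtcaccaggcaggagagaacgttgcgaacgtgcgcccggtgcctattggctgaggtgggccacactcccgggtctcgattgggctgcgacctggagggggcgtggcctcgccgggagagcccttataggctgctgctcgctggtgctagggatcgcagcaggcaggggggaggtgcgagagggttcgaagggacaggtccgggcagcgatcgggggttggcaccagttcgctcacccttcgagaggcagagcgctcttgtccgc

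In Sgk1 the palindrome begins 189 bases upstream of the start site and covers chr10:21993701-21993715, and a further arm on the opposite strand begins 242 bases upstream. In Tsc22d3 the lone arm begins 185 bases upstream, on the opposite strand. Ddit4, like Nr3c2, Hsd11b1, Fkbp5 and Plin4, had neither set of letters in its window. Only exact matches were searched, so this says nothing of elements farther away or of ones with other letters inside the window. Sgk1 has 6 annotated starts and 1 probeset, so the arrays do not tell which start was used.

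**Figure D1:**
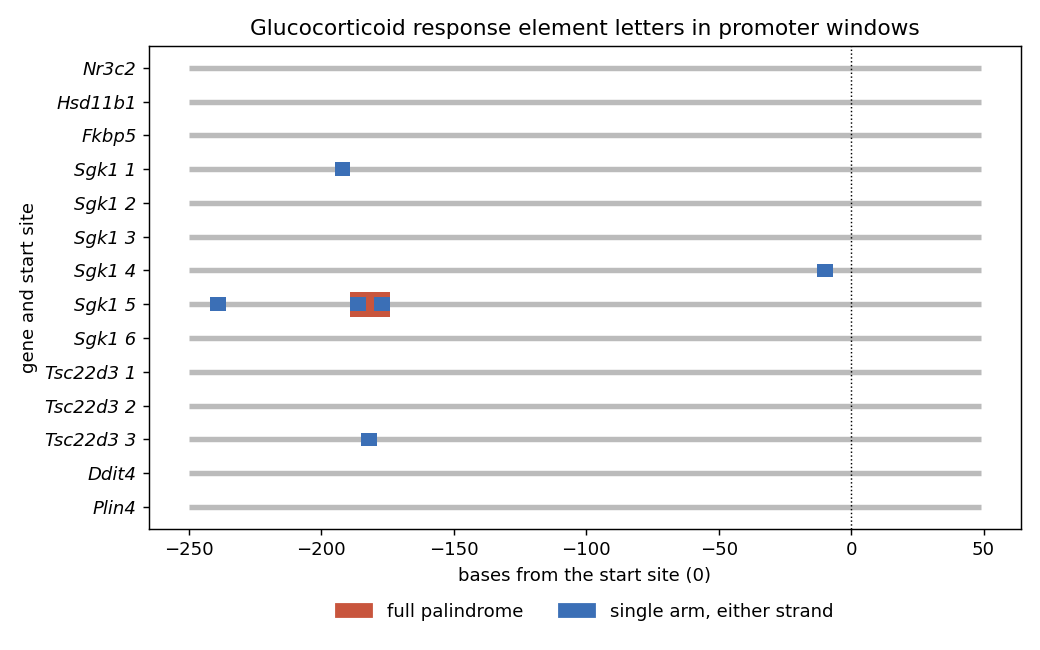
Exact matches to the palindrome (red) and to a single arm of it on either strand (blue) in the 14 promoter windows of 7 genes. Positions are given as distance in bases from the annotated start site at 0. The palindrome lies in 1 window of Sgk1, and single arms outside it lie in 3 windows of Sgk1 and 1 of Tsc22d3.

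Levels are given below on the quantile-normalised log2(intensity + 1) scale, and a difference is knockout minus control on that scale, tested with limma and adjusted by Benjamini-Hochberg over all 16635 genes. No gene of these 10 passed an adjusted p of 0.05, and no gene on the array did (0 called, 0% of those tested). Of the 10 genes, 7 had a difference above 0 and 3 below (8 and 2 with arrays centred on their median), with a median of 0.16, beside 54.8% of all genes above 0 and a median of 0.01. At an unadjusted p under 0.05, 1 of the 10 (Zbtb16, higher in knockout) passed, beside 1.7% of all genes tested, 0.932% in this direction. The genes were chosen with earlier results of these arrays known, so these counts describe the choice as well as the arrays.

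The arrays numbered 3 of both groups stood apart from the other 4. Xist, which is transcribed from the inactive X chromosome, was at 7.68 or above on both and between 2.52 and 2.79 elsewhere. In 23.4% of all genes both arrays numbered 3 lay above the other 4, and in 20.6% both lay below. Of the 10 genes, 0 lay above and 3 (Hsd11b1, Tsc22d3 and Cdkn1c) lay below on both. Cell type markers separated these arrays too. Summed intensities of 6 endothelial markers were 342 and 367 on arrays numbered 3 and 112 to 158 on the others, with 5 of the 6 markers higher on both. Those of 6 meningeal fibroblast markers were 333 and 392 against 649 to 742, with 5 of 6 lower, and those of 6 neuron markers were 14200 on both against 9410 to 10200, with 5 of 6 higher. Astrocyte and microglia marker sums were lower on both (3080 to 3260 against 3510 to 3890, and 493 to 532 against 670 to 730), with 4 of 6 and 4 of 5 markers lower. Mural cell marker sums were higher (577 to 635 against 394 to 401), but only 2 of 6 markers, Pdgfrb and Rgs5, were higher on both. Oligodendrocyte marker sums (1270 to 1660 in control, 1280 to 1470 in knockout) did not follow the array numbers. All these marker lists gave signal on every array, their part in the results was not tested, and red blood cell markers were not analysed here. The targeted gene, Elavl1, was at 8.27 ± 0.26 on control arrays and 8.22 ± 0.05 on knockout arrays (SD, n = 3 each), so its level does not check the labels.

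The glucocorticoid receptor gene was the steadiest of the 10. Nr3c1 was at 8.75, 8.70 and 8.63 on control arrays 1 to 3 and at 8.60, 8.60 and 8.56 on knockout arrays 1 to 3. The knockout arrays all lay below the control arrays, the only case among the 10 in which the groups did not overlap; 5.7% of all genes tested showed such a separation, 2.55% in this direction. The difference was small, -0.11 with a standard error of 0.10 (0.928-fold, 95% interval 0.792 to 1.09; limma adjusted p = 1.00). Its spread within groups was 0.05, and 98.2% of tested genes varied more.

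Nr3c2, the mineralocorticoid receptor gene, was at 7.26, 7.20 and 6.99 on control arrays and at 7.27, 7.06 and 7.22 on knockout arrays. These values overlapped, with a difference of 0.03 (standard error 0.12) and a 95% interval from 0.844-fold to 1.24-fold. Hsd11b1 encodes the reductase that regenerates active corticosterone from its inert keto form inside cells. It was at 5.74, 5.93 and 5.54 in control and at 5.82, 5.89 and 5.38 in knockout brain, lowest on the array numbered 3 in both groups, and the difference was -0.04 (standard error 0.17; 0.01 with arrays centred on their median). For these receptors and the enzyme the 95% intervals of the difference together ran from 0.738-fold to 1.28-fold.

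Fkbp5 was at 6.01, 5.79 and 5.82 on control arrays and at 6.06, 6.28 and 5.72 on knockout arrays. Knockout 2 was the highest array and knockout 3 the lowest, so the knockout values enclosed those of the controls. The difference was 0.15 (standard error 0.16), or 1.11-fold with a 95% interval of 0.855 to 1.44, and it was 0.02 without knockout 2 and 0.30 without knockout 3.

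Sgk1, a kinase that regulates ion channels and transporters, varied most of the 10. Its deposited intensity was 102, 159 and 134 on control arrays 1 to 3 and 262, 263 and 109.9 on knockout arrays 1 to 3, or 6.67, 7.41 and 7.05 against 8.05, 8.04 and 6.74 on the log2 scale. Knockout 1 and 2 stood above every control, and knockout 3 was below control 2 and control 3. The difference was 0.56 with a standard error of 0.37 (1.48-fold, 95% interval 0.817 to 2.67; limma adjusted p = 1.00). The spread within groups was 0.59, larger than in all but 1.34% of tested genes, where the median gene had 0.175. Without knockout 3 the difference was 1.00, and without knockout 1 or knockout 2 it was 0.34 or 0.35.

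Tsc22d3, whose product GILZ mediates part of the anti-inflammatory action of glucocorticoids, had a similar shape at smaller size. Its levels were 5.85, 6.18 and 5.76 in control and 6.07, 6.56 and 5.66 in knockout brain. The groups overlapped, with knockout 2 highest and knockout 3 lowest, and the difference was 0.17 (standard error 0.23). Its sign turned to -0.06 without knockout 2.

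Ddit4 encodes an inhibitor of mTOR signalling that is induced by glucocorticoids, hypoxia and energy stress. It was at 6.15, 6.27 and 6.61 on control arrays and at 6.84, 7.07 and 6.28 on knockout arrays, again with knockout 1 and 2 above every control and knockout 3 among the controls. The difference was 0.39 (standard error 0.22), or 1.31-fold with a 95% interval of 0.917 to 1.87. It was 0.22 without knockout 2 and 0.61 without knockout 3.

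Zbtb16 encodes the zinc finger transcription factor PLZF. Its levels were 6.40, 6.49 and 7.12 in control and 7.01, 7.59 and 7.11 in knockout brain. Control 1 and 2 were the lowest arrays, and control 3 lay above knockout 1 and close to knockout 3, so the groups overlapped. The difference was 0.56 with a standard error of 0.23 (1.48-fold, 95% interval 1.02 to 2.14), with a limma unadjusted p of 0.0424 and an adjusted p of 1.00. With same-numbered arrays as a block the limma unadjusted p was 0.032, in a fit where 4.85% of all genes and 1 of the 10 were under 0.05, and the adjusted p 0.984. Leaving out control 1, control 2 or knockout 2 lowered the difference to 0.43, 0.47 or 0.39, with limma unadjusted p values of 0.137, 0.126 and 0.145, and leaving out control 3 raised it to 0.79 (limma unadjusted p = 0.00415).

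Plin4, which coats lipid droplets, was dimmer, at 4.20, 4.42 and 4.40 in control and 4.41, 4.86 and 4.45 in knockout brain. Knockout 2 stood above the other 5 arrays, and the difference was 0.23 (standard error 0.15), or 0.09 without knockout 2. Cdkn1c, an imprinted inhibitor of the cell cycle, differed in the other direction, from 5.08, 4.99 and 4.78 in control to 5.10, 4.86 and 4.41 in knockout brain. Its difference was -0.16 (standard error 0.19), and it was 0.03 without knockout 3.

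**Figure D2:**
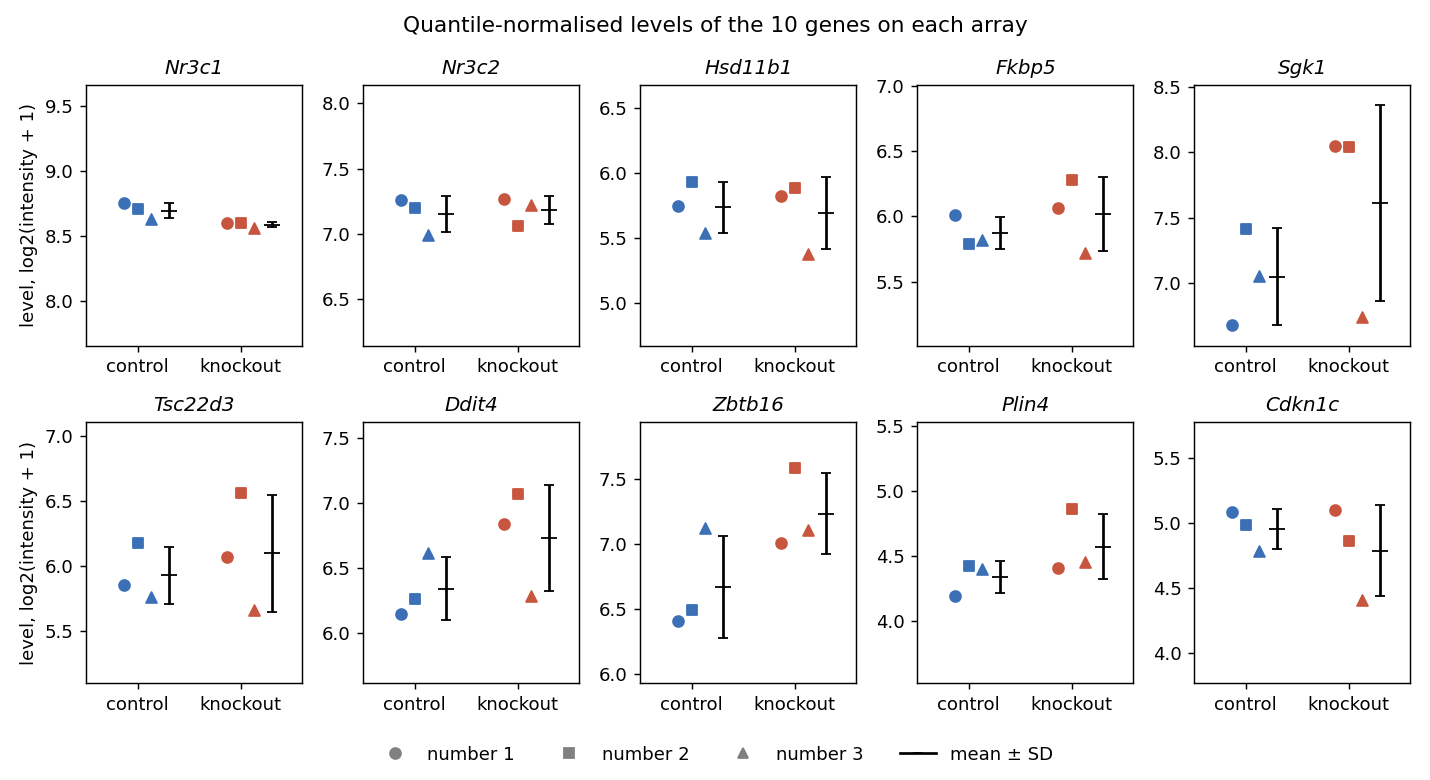
Quantile-normalised log2(intensity + 1) level of each of the 10 genes on each array, control in blue and knockout in red, with array numbers 1, 2 and 3 as circles, squares and triangles and the group mean ± SD (n = 3) in black; every panel spans the same height. Knockout 1 and 2 stand above every control array in Sgk1 and Ddit4, while knockout 3 lies within the range of the control values in both.

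Across the 6 arrays the highest value fell on knockout 2 for 5 of the 10 genes and on knockout 1 for 3 more. Over all genes tested, 15.8% were highest on knockout 2 and 13.4% on knockout 1. The lowest value fell on knockout 3 for 5 genes and on control 1 for 4, where 16.1% and 20.1% of all genes had theirs. The summed intensity of 5 choroid plexus markers was also highest on knockout 2 and next on knockout 1 (6900 and 6189), against 5330 to 5910 in controls and 5600 on knockout 3. Most of this sum was Ttr, at 12.53 and 12.68 on knockout 1 and 2 and 12.30 to 12.45 on control arrays. Folr1 shared this order, while Kl, Clic6 and Aqp1 on knockout 1 lay within the range of the controls. The part of these markers in the results was not tested. The median difference of the 10 genes rested on single arrays. Leaving out knockout 2 gave 0.05, leaving out control 3 gave 0.10 and leaving out knockout 3 gave 0.29.

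Each array number holds 1 control and 1 knockout array, so the differences between same-numbered arrays are given as a description. Between the arrays numbered 1 it had a median of 0.14 over the 10 genes, with 9 above 0, beside 52.1% of all genes. Between those numbered 2 it had a median of 0.41, with 6 above 0, beside 53.3% of all genes. Between the arrays numbered 3 the median was -0.10, with 2 of 10 above 0, beside 51.4% of all genes. For Sgk1 the differences between same-numbered arrays 1, 2 and 3 were 1.37, 0.63 and -0.31. For Ddit4 these differences were 0.69, 0.80 and -0.33, and for Zbtb16 0.60, 1.09 and -0.01. In all, 5 of the 10 genes (Fkbp5, Sgk1, Tsc22d3, Ddit4 and Zbtb16) lay above 0 for numbers 1 and 2 and below 0 for number 3, as did 13.5% of all genes tested.

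**Figure D3:**
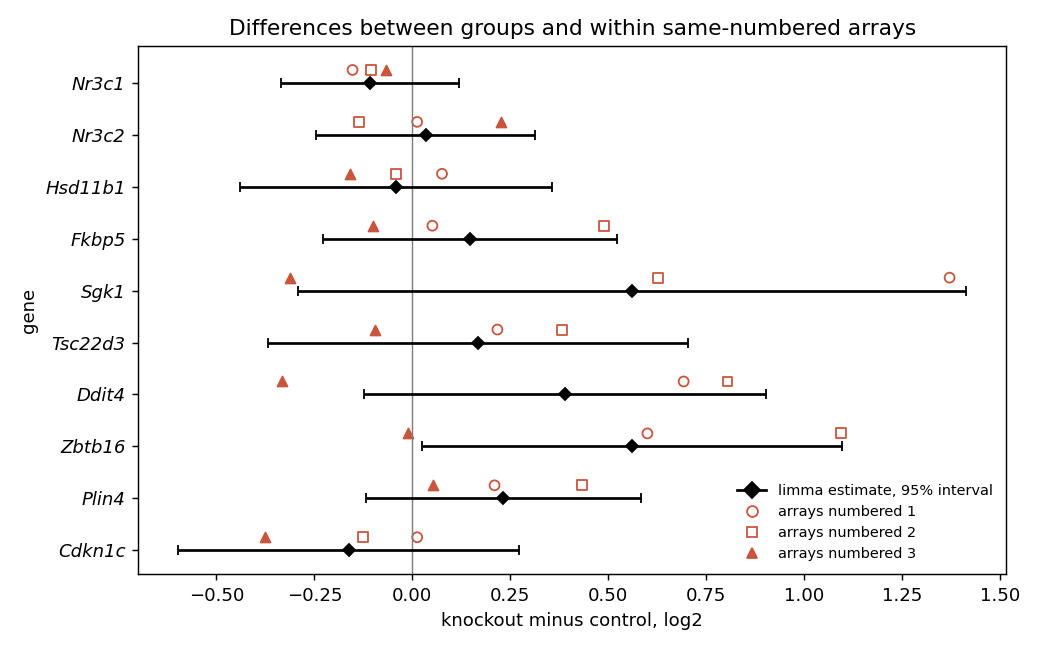
Knockout minus control on the log2 scale for each gene, as the limma estimate with its 95% interval (black diamonds) and as the difference between same-numbered arrays (circles, squares and filled triangles for numbers 1, 2 and 3). The 95% interval of Zbtb16 alone leaves out 0, and the filled triangles lie left of the open symbols in 8 of the 10 genes.

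Whether the difference on arrays numbered 3 departed from that on the others was examined with an interaction term in limma. In it each array numbered 3 stands alone and is assumed to vary like the rest. Both this split and the 10 genes were chosen with earlier results of these same arrays known. The values below therefore describe that choice as well and are no independent test. Of the 10 genes, 8 had a smaller difference on arrays numbered 3, with a median of -0.34, beside 52.1% of all genes and a median of -0.01. The interaction was -1.08 with a standard error of 0.22 for Ddit4 (limma unadjusted p = 0.00329) and -1.31 with a standard error of 0.42 for Sgk1 (limma unadjusted p = 0.0229). These were the 2 of 10 with an unadjusted p under 0.05, beside 2.63% of all genes tested, and neither passed after adjustment (limma adjusted p = 0.999), nor did any other gene (0% called).

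Without both arrays numbered 3, Sgk1 was 2.00-fold higher in knockout brain (a log2 difference of 1.00 with a standard error of 0.24), Zbtb16 1.80-fold (0.85, standard error 0.20) and Ddit4 1.68-fold (0.74, standard error 0.13). The limma unadjusted p values were 0.00718, 0.00669 and 0.00138. These were 3 of 10 genes under 0.05, where 5.12% of all genes tested were, and none of the 10 passed after adjustment (smallest limma adjusted p = 0.929). In 4 of the 10 genes (Fkbp5, Sgk1, Ddit4 and Zbtb16) both of these knockouts lay above both controls, beside 19.7% of all genes, and in 1 (Nr3c1) both lay below, beside 15%. This comparison has 2 arrays in each group.

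The rest of the pathway was followed in 6 lists, whose genes were named by their place in the list and by the smallest unadjusted p. None of their genes passed an adjusted p of 0.05 in either direction. Of 22 other genes known to be induced by glucocorticoids, 18 had a difference above 0 and 4 below, with a median of 0.12 beside 0.01 for all genes. The list followed the same array numbers, with medians of 0.14 and 0.23 between arrays numbered 1 and 2 and -0.08 between those numbered 3, and its median was 0.01 without knockout 2, 0.06 without knockout 1 and 0.24 without knockout 3. The clock gene Per1 had a difference of 0.13 (standard error 0.22), the transcription factor Klf9 one of 0.20 (0.14), the phosphatase Dusp1 one of -0.13 (0.28), and Nfkbia, which encodes an inhibitor of NF-kappaB, one of 0.27 (0.24). Single arrays moved these values: Nfkbia was at 0.09 without knockout 2 and 0.53 without knockout 3, and Klf9 at 0.11 without control 1 and 0.33 without control 3. The smallest unadjusted p values belonged to Hif3a and the transcriptional repressor Bcl6, each at 0.28 (standard errors 0.12 and 0.14) with all knockout arrays above all control arrays, a separation seen in 3.14% of all genes in this direction. Bcl6 was at 0.15 without control 1, and Hif3a ran from 0.20 to 0.34 with 1 array left out. Hif3a was dim, with a mean of 4.01 in control and 4.28 in knockout brain, and its difference was 0.15 with a pseudocount of 16.

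The receptor's chaperones and coregulators had medians near that of all genes, but the median of the coregulators depended on single arrays. Of 9 chaperones tested, 5 lay above 0, with a median of 0.03. Hsp90aa1, a cytosolic form of the chaperone that holds the receptor ready for hormone, was at -0.02 (standard error 0.10), and Fkbp4, the relative of Fkbp5 that favours transport of the receptor to the nucleus, at 0.12 (0.10). The heat shock co-chaperone Dnajb1 was at 0.13 (0.16), and Ptges3, the co-chaperone p23, was below the filter on low values at 3.02 in control and 3.07 in knockout brain. Of 8 coregulators 4 lay above 0, with a median of 0.01 that ran from -0.12 without knockout 3 to 0.17 without control 3. Without both arrays numbered 3 it was 0.04. The coactivators Ncoa1, Ncoa2 and Ncoa3 were at 0.06, -0.04 and 0.09 with standard errors of 0.14, 0.20 and 0.12. The sign of Hsp90aa1 and Ncoa2 turned with arrays centred on their median.

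Genes of corticosteroid metabolism and transport, among them the steroid synthesis genes Cyp11b2 and Star, had a median of -0.13 over 6 tested genes, 4 of them below 0. With 1 array left out the median ran from -0.20 without control 3 to -0.04 without control 2, and with a pseudocount of 16 it was -0.06. Abcb1a, which encodes the P-glycoprotein pump of the blood-brain barrier, was at 6.21, 5.60 and 6.76 on control arrays and at 4.76, 4.92 and 6.93 on knockout arrays. Knockout 1 and 2 lay below every control and knockout 3 above them. The difference was -0.66 with a standard error of 0.57 (limma adjusted p = 1.00), -1.34 without knockout 3 and -1.06 without both arrays numbered 3. Its relative Abcb1b was dim, at 3.84, 3.97 and 3.72 in control and 3.51, 3.33 and 3.64 in knockout brain. These groups did not overlap, as in 2.55% of all genes in this direction. The difference was -0.35 (standard error 0.12, limma unadjusted p = 0.0246 and adjusted p = 1.00), or -0.16 with a pseudocount of 16. The summed endothelial markers were 112 and 130 on knockout 1 and 2 and 158 on both control 1 and control 2. Most of this came from Slco1a4, at 6.23 and 6.02 on control 1 and 2 and 5.12 and 5.51 on knockout 1 and 2. Tek was also lower on both knockouts (3.85 and 3.62 against 3.58 and 3.51), while Cldn5, Pecam1, Flt1 and Ly6c1 overlapped on these arrays. The part of these markers in the Abcb1a difference was not tested. Hsd11b2, which inactivates corticosterone, was at -0.18 (standard error 0.12), and H6pd, which supplies the cofactor of Hsd11b1, at 0.07 (0.12).

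Hormones and receptors of the corticotropin axis had a median of 0.01 over 9 tested genes, 5 of them above 0. This median was 0.08 with arrays centred on their median, 0.13 with no filter on low values and 0.11 without control 1, and it was -0.02 without both arrays numbered 3 and with array weights. Crh, the hypothalamic releasing hormone, was at -0.07 (standard error 0.19) and the corticotropin precursor Pomc at 0.16 (0.15; 0.02 without knockout 2). Vasopressin, Avp, was at 8.44, 8.57 and 7.84 in control and 8.25, 8.35 and 7.46 in knockout brain, lower in knockout at each array number. Its groups overlapped, and the difference was -0.26 (standard error 0.28, or 0.09 with same-numbered arrays as a block). It was 0.02 without knockout 3 alone and -0.20 without both arrays numbered 3. Crhr1, the main receptor of Crh in brain, was at 5.84, 6.23 and 6.37 in control and 6.31, 6.41 and 6.75 in knockout brain, a difference of 0.34 (standard error 0.18; 0.19 without control 1) with overlap. Crhr2 was dim, at 4.11, 4.12 and 4.07 against 4.21, 4.41 and 4.35, a difference of 0.22 (standard error 0.10) without overlap. Such a separation was seen in 3.14% of all genes in this direction, and the difference was 0.12 with a pseudocount of 16. With same-numbered arrays as a block the limma unadjusted p was 0.0116 for Crhr1, 0.0267 for Avp and 0.0489 for Crhr2, in a fit where 4.85% of all genes were under 0.05, and the limma adjusted p of each was 0.984. Of 3 other steroid receptors tested, the oestrogen receptors Esr1 and Esr2 were at -0.46 (standard error 0.37) and -0.10 (0.16) and the progesterone receptor Pgr at 0.09 (0.19), with a list median of -0.10. Esr1 rested on control 1, at 5.88 where the other 5 arrays read 4.29 to 4.64, and its difference was 0.01 without that array.

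**Figure D4:**
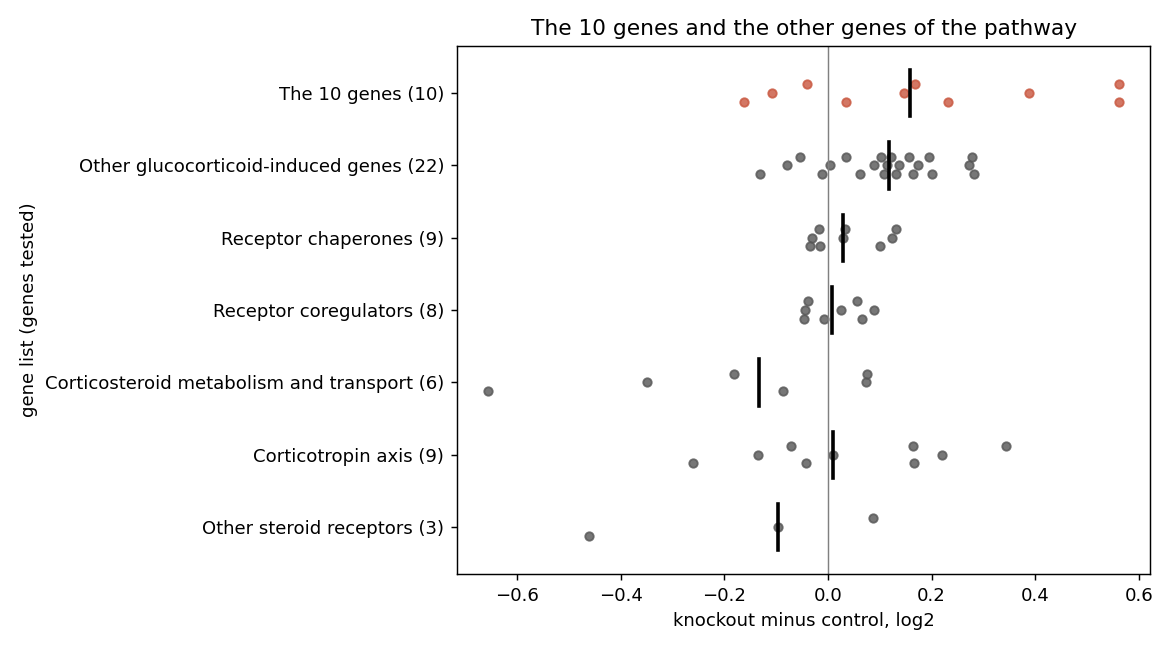
Knockout minus control on the log2 scale for the 10 genes (red) and for the tested genes of 6 other lists of the pathway (grey), each point 1 gene and each black bar the list median, with the number of genes tested in brackets. The medians run from -0.13 for corticosteroid metabolism and transport to 0.16 for the 10 genes.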

How the data were processed

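TRIzol-extracted RNA of whole brain (150 ng per sample) was labelled with an Affymetrix WT Plus kit and hybridised to Mouse Gene 2.0 ST arrays, per the labels' protocols and the series' design text. The deposited values are linear intensity values of 41340 probesets on 6 arrays, with array medians of 13.4 to 14.6. The submitters' processing notes name MAS5; none of the sources used here states how background and scale were treated. The number of arrays limits the precision: the 95% interval of a difference reached a median of 0.328 to either side. As the labels do not identify the animals, p-values cover the spread between these arrays only. Part of that spread may be technical, though Xist differed between the arrays numbered 3 and the others within each group.

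Values were converted to log2(intensity + 1) and quantile-normalised. Of 23521 probesets with 1 symbol the brightest per gene was kept (22180 genes), and the dimmest 25% of genes by mean level (5545) were not tested. The groups were compared in R 4.3.3 with limma 3.58.1 (two-sided moderated test of lmFit and eBayes, Benjamini-Hochberg); folds on this scale understate changes of dim genes. An interaction term compared arrays numbered 3 with the others. The procedure was tested on simulated data. Plots used matplotlib 3.10.9. The members and lists were chosen with earlier results of these data known. Named genes were the members, the first 4 of each list, the 2 per list with the smallest unadjusted p and the 5 nearest profiles.

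Same-numbered arrays were checked for pairing: deviations from group means correlated at 0.31, 0.37 and 0.75 for numbers 1, 2 and 3, above the limit of 0.1, so the arrays were treated as paired in an alternative fit, though control 1 also correlated with knockout 2 at 0.40. No label states the pairing. Alternatives covered normalization, pseudocount, filter, probeset rule, variance model, array weights, a replicate block, arrays numbered 3 and single arrays.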

Additional observations from a re-analysis of the deposited data

How the results depend on the processing

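No adjusted call was made among the 10 genes, the lists or all genes under any of the 11 alternatives or 6 omissions of 1 array. The count of genes called was 0 in each, with limma throughout, and the unadjusted count over all genes ran from 88 in the upper 50% of genes by mean level to 851 without both arrays numbered 3 (282 as reported). With same-numbered arrays as a replicate block, 0 of the 10 genes passed and the unadjusted count was 806; the pairing changed no call. The smallest adjusted p of any of the 10 genes was 0.929. The median over the 10 genes was 0.131 with a pseudocount of 16 and 0.283 without both arrays numbered 3, the lowest and highest of the 11 alternatives, and ran from 0.054 to 0.294 with 1 array left out, with 6 to 9 genes above 0. Signs turned in the following cases, and the cause was not tested. With arrays centred on their median Hsd11b1 was at 0.013, Hsp90aa1 at 0.052 and Ncoa2 at 0.022; with values as deposited Hsp90aa1 was at 0.016. Without both arrays numbered 3 Nr3c2 was at -0.061, Hsd11b1 at 0.017, Ncoa2 at 0.086, and the list medians of receptor chaperones and the corticotropin axis were -0.0087 and -0.016. The first was -0.015 with the mean of all probesets and the second -0.021 with array weights. Leaving out 1 array turned the sign of Nr3c2 (-0.044 to 0.096), Hsd11b1 (-0.14 to 0.116), Tsc22d3 (-0.062 to 0.382) and Cdkn1c (-0.317 to 0.028). It also did so for Per1 (-0.111 to 0.284), Dusp1 (-0.39 to 0.112), Hsp90aa1 (-0.034 to 0.00099), Dnajb1 (-0.0050 to 0.256), Ncoa1 (-0.033 to 0.158), Ncoa2 (-0.213 to 0.172), Avp (-0.482 to 0.023), Crh (-0.184 to 0.108), Esr1 (-0.745 to 0.0096) and Pgr (-0.040 to 0.274). List medians that turned were those of receptor chaperones (-0.020 to 0.057), receptor coregulators (-0.12 to 0.171) and other steroid receptors (-0.258 to 0.0096). The other glucocorticoid-induced genes had medians of 0.0062 to 0.236 with 1 array left out. No steroid receptor of that list reached the upper 50% of genes, so no value could be given there.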

Other observations

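Among 2272 genes other than these 10 with an SD of at least 0.3 over the 6 arrays, those whose profile lay nearest to the mean profile of the 6 hormone-responsive genes were Cables1, Gm19439, Bglap, 1700084J12Rik and Pdlim4. Profiles were scaled to unit SD, and likeness was the mean absolute difference over the 6 arrays, which was 0.203 for Cables1, 0.225 for Gm19439, 0.229 for Bglap, 0.256 for 1700084J12Rik and 0.261 for Pdlim4. Sgk1 and Ddit4, which helped to set the profile, were at 0.321 and 0.318, and Nr3c1 at 1.10. Cables1, which encodes an adaptor protein of cyclin-dependent kinases, was at 5.57, 5.89 and 5.72 on control arrays and at 6.08, 6.57 and 5.43 on knockout arrays. Bglap encodes osteocalcin, a hormone of bone, and was dim, at 3.42, 4.03 and 3.86 in control and 4.18, 4.98 and 3.65 in knockout brain. Pdlim4, which binds actin filaments, was at 5.15, 5.20 and 5.18 in control and 5.44, 5.77 and 4.87 in knockout brain. All 5 were highest on knockout 2, none passed an adjusted p of 0.05 in limma, and with 6 arrays close profiles are found among very many genes, so the likeness is a description.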
